A study of Rattus norvegicus with 47 samples.

Results

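The IL-1 and IL-18 ligands and receptors are described here in the blood of rats before and after stroke. They were 9 genes of the 20935 gene symbols on the array, taken by symbol, and each had 1 probe set. The ligands were Il1a, Il1b and Il18, the signalling receptor chains were Il1r1, Il1rap, Il18r1 and Il18rap, the decoy receptor was Il1r2 and the receptor antagonist was Il1rn. The samples were whole blood cell pellets of 8 male spontaneously hypertensive rats (SHR) aged 16 weeks, all of which underwent transient middle cerebral artery (MCA) occlusion with a thread. The 0 h sample was drawn before anesthesia, and the others at 1, 2, 3, 6 and 24 h post MCA occlusion. The thread was withdrawn under renewed anesthesia between the 1 h and 2 h samples, so the step between them spans reperfusion. Each time point had 8 arrays, apart from 6 h with 7, as 1 rat lacked that sample. The samples up to 6 h came from the tail vein and the 24 h sample from the heart, so time and site of sampling cannot be told apart at 24 h. The paper describes heparin for the tail vein samples and does not mention it for the 24 h sample. Sham-operated or normotensive rats were not analysed here, and the effects of stroke, reperfusion, surgery, anesthesia and time of day cannot be told apart.

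IL-1α and IL-1β signal through the type 1 receptor, Il1r1, which must pair with the accessory chain Il1rap before it can recruit the adaptor MyD88 and the IRAK kinases. IL-18 works in the same way through Il18r1 and its accessory chain Il18rap. Il1r2 binds IL-1 but has no signalling domain, and Il1rn occupies Il1r1 without activating it, so both restrain the pathway. IL-1β and IL-18 are made as precursors that caspase-1 cleaves within inflammasomes. In blood, monocytes and neutrophils are the main sources of IL-1β, and neutrophils are rich in the decoy receptor.

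Each probe set summarizes probes spread over the exons of its gene, so splice forms are not separated. Values are the authors' mean and SD over the arrays of a time point, as log2 RMA signal, and a change of 1 on this scale means that the signal doubled. A gene was called higher or lower where limma's moderated test, rebuilt from those means, SDs and array numbers, gave a false discovery rate (FDR, Benjamini-Hochberg over 27596 probe sets) below 0.05. Single arrays were not used, since their names matched no label, so the spread is shown by the SDs alone. The 5 comparisons with 0 h share the same 0 h arrays. The arrays are treated as independent although the same 8 rats were sampled throughout. Across all 9 genes the F-test over the time course was passed by 9 of 9, where 55.5% of all probe sets passed it. The F-test calls of Il1a and Il18r1 were lost under alternatives (limma FDR 0.109 for Il1a with quantile normalization and 0.424 for Il18r1 without the 24 h samples). The paper's own F-test lists Il18r1 as not significant, where the rebuilt F-test gave it an FDR of 0.0386. The paper's F-test p-values for Il1r2, Il18rap and Il1rn are also larger than the rebuilt ones. The cause of this difference was not tested.

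At their largest, the rises of the decoy receptor, both accessory chains and Il1r1 exceeded that of any ligand, and they followed 2 schedules. Il1r2 and Il18rap were already high at 1 h, while Il1r1 and Il1rap were first called at 2 h. Reperfusion under renewed anesthesia lay between the 1 h and 2 h samples, and its part in this split was not tested. Il1r1 had nearly reached its 6 h level by 3 h, and Il1rap rose further to 6 h. Among the ligands, Il1b rose and stayed up, Il18 fell at 1 h and 24 h, and Il1a moved by no more than 0.25. At 1 h, 3 of the 9 genes were called higher (Il1b, Il18rap and Il1r2), beside 21.7% of all probe sets, and 1 (Il18) was called lower, beside 15.4%. At 2 h, 7 were called higher, beside 21.7% of all probe sets, and 0 lower, beside 18.6%. The 3 h counts were again 7 and 0, beside 27.3% and 19.2%. At 6 h, 6 were called higher and 0 lower, beside 22.5% and 19.3%. At 24 h, 6 were called higher and 2 lower, beside 17.4% and 13.9%. The median change of the 9 genes was 0.23, 0.64, 0.60, 0.92 and 0.72 at the 5 times in order. The median over all probe sets was 0.05, 0.05, 0.07, 0.05 and 0.04.

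**Figure D1:**
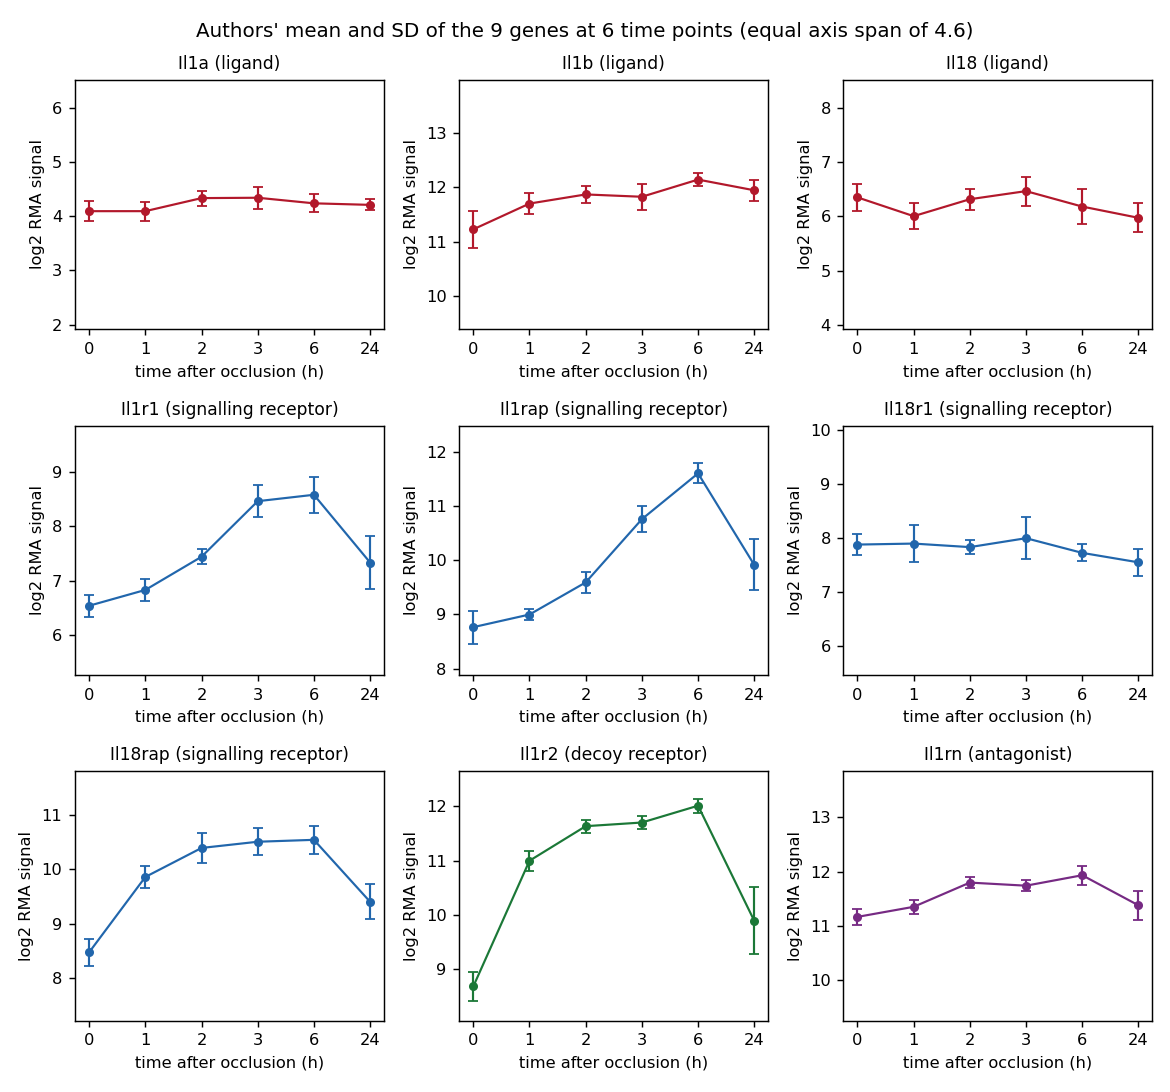
Authors' mean log2 RMA signal (points) and SD (bars) of each of the 9 genes at 0, 1, 2, 3, 6 and 24 h post MCA occlusion, over 8 arrays (7 at 6 h), with the same axis span in every panel and time points evenly spaced. Il1r2 rose from 8.68 to 12.0 and Il1rap from 8.77 to 11.6 by 6 h, while the changes of Il1a, Il18 and Il18r1 from 0 h lay between -0.38 and 0.25.

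Promoter sequences are shown for Il1b, the ligand with the largest rise, and for both chains of the IL-1 receptor, which were first called at 2 h. They come from RefSeq on build GRCr8 and run from 250 bases before to 50 bases after an annotated start. RefSeq entries matched 7 of the 9 genes, and Il1r2 and Il18rap had none. Capitals mark matches to 7 motifs searched on both strands, none of which overlapped another. Il1b is at chr3:137036532-137036831 (minus strand), Il1r1 at chr9:50034133-50034432 (plus strand) and Il1rap at chr11:87704293-87704592 (minus strand, 1 of its 2 entries).
Il1b: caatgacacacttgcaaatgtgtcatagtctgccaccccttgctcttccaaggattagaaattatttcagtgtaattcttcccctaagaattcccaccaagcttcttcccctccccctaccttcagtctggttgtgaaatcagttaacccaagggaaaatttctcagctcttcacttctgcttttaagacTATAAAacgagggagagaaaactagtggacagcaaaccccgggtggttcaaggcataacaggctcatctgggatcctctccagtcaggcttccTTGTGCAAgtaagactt
Il1r1: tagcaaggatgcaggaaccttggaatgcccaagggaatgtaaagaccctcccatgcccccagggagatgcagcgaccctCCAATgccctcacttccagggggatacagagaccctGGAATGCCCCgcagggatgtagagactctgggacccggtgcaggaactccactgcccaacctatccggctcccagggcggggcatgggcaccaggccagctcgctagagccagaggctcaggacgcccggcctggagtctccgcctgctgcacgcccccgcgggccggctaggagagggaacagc
Il1rap: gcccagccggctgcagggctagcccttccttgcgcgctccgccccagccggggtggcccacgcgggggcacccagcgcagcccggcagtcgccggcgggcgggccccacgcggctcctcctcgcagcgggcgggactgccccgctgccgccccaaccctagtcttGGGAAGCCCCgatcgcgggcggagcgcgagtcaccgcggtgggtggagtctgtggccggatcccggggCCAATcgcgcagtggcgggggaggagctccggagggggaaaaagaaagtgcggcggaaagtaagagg
In the Il1b sequence the capitals are a TATA box (TATAAA) starting at base -60 from the start site and a C/EBP motif (TTGCNNAA) at 34, read on the opposite strand. The motifs were present in 14.2% and 10.6% of 33469 promoters of this length. Il1r1 and Il1rap each held a CCAAT box (CCAAT, in 37.5% of promoters), at -171 and -17, and an NF-kB consensus, at -135 on the opposite strand and at -85. The NF-kB consensus was present in 7.51% of promoters. It had no match in the entries of the other 5 genes. The other motifs were AP-1 (TGANTCA, 7.33%), PU.1 (GAGGAA, 27.6%) and the glucocorticoid receptor (GNACANNNTGTNC, 0.439%). These 3 had no match in the sequences printed here, which says only that the letters are not in these windows. A match describes the letters and is not evidence of a bound site. In the other Il1rap entry the NF-kB consensus lay at -166 and the CCAAT box at -98 from its own start. Start sites outside the RefSeq entries were not examined.

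Il1b, the ligand that activated monocytes and neutrophils release, lies on chromosome 3 of rn5 from 128133908 to 128140353. Its authors' mean was 11.23 at 0 h (SD 0.34), 11.70 at 1 h (SD 0.20), 11.87 at 2 h (SD 0.15), 11.83 at 3 h (SD 0.24), 12.14 at 6 h (SD 0.11) and 11.95 at 24 h (SD 0.19). Every later mean lay above the 0 h mean by more than the 0 h SD, and the 6 h mean was the highest. The change from 0 h was 0.48 (SE 0.11, limma FDR 4.87e-04) at 1 h and 0.92 (SE 0.11, limma FDR 2.25e-09) at 6 h, or 1.89-fold. At 24 h it was still 0.72, which is 78.5% of the 6 h change. None of the 4 steps between neighbouring time points passed the test, so the course from 1 h to 24 h was not resolved into separate rises and falls. The 0 h SD was the widest of the 6 for this gene.

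Il1a, the ligand that is active as its precursor, lies on chromosome 3 of rn5 from 128180474 to 128190979. Its means stayed in a narrow band, from 4.09 at 0 h (SD 0.18) and 4.09 at 1 h (SD 0.18) to 4.34 at 3 h (SD 0.21). It was called higher at 2 h (change 0.24, SE 0.08, limma FDR 0.0155) and at 3 h (change 0.25, SE 0.08, limma FDR 0.0115), and at no other time. Its probe set was among the 25% with the lowest mean signal, and both calls were lost when the means were quantile normalized (limma FDR 0.0783 and 0.102). A Welch test of 3 h against 0 h gave an adjusted p of 0.0566.

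Il18, the ligand that acts with IL-12 on T cells and NK cells, lies on chromosome 8 of rn5 from 53587779 to 53613610. The authors' mean signal was 6.35 at 0 h (SD 0.25), 6.00 at 1 h (SD 0.24), 6.32 at 2 h (SD 0.20), 6.47 at 3 h (SD 0.27), 6.18 at 6 h (SD 0.31) and 5.97 at 24 h (SD 0.27). It fell by 0.35 at 1 h (SE 0.12, limma FDR 0.0234) and by 0.38 at 24 h (SE 0.12, limma FDR 0.0166). The time points between were within 0.17 of the 0 h mean and were not called. Il18 and Il1b thus differed in direction at 1 h and at 24 h, each against its own 0 h mean.

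**Figure D2:**
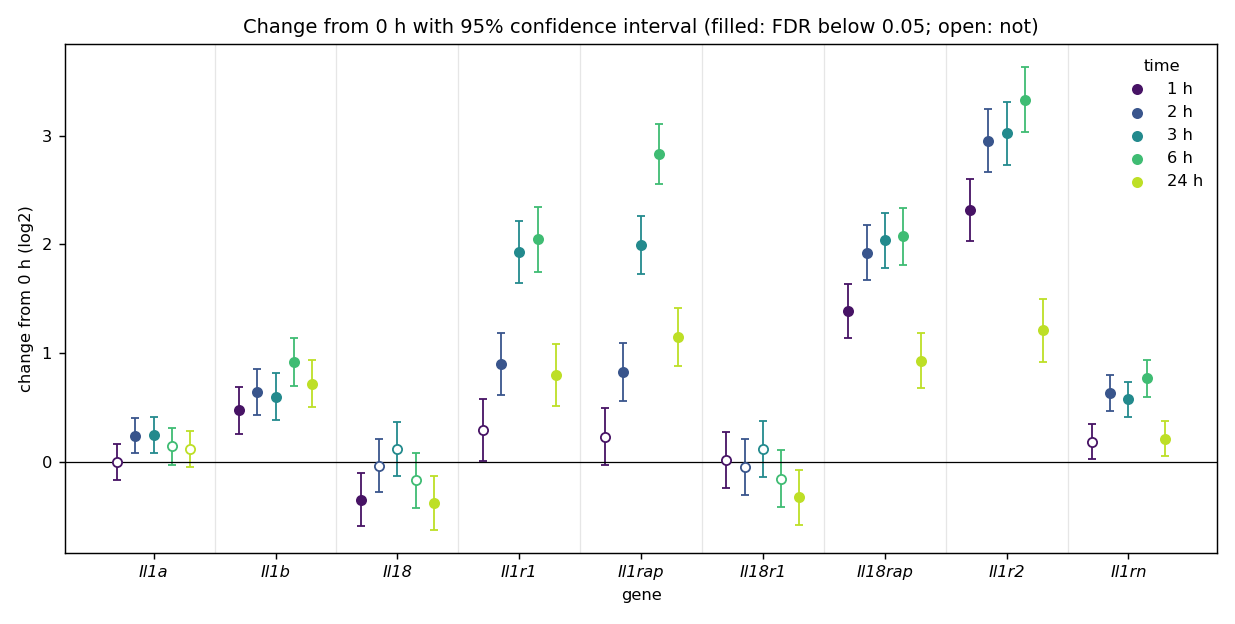
Change from 0 h in log2 RMA signal of each gene at 1, 2, 3, 6 and 24 h, with bars for the 95% confidence interval of the moderated model. Filled points had an FDR below 0.05 and open points did not. Il1r2 spans 1.21 to 3.33 and Il1rap 0.23 to 2.84, while the points of Il18r1 stay between -0.33 and 0.12.

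Il1r1, the chain that binds IL-1 and carries the signal, lies on chromosome 9 of rn5 from 46647711 to 46720622. Its authors' mean was 6.53 at 0 h (SD 0.21), 6.83 at 1 h (SD 0.21), 7.44 at 2 h (SD 0.14), 8.46 at 3 h (SD 0.29), 8.58 at 6 h (SD 0.33) and 7.33 at 24 h (SD 0.49). The means at 3 h and 6 h stood above the 0 h mean by several SDs, with 2 h between them. The change was 0.29 at 1 h (SE 0.14, limma FDR 0.101), which was not called, and 0.90, 1.93 and 2.05 at 2, 3 and 6 h, which were. The 1 h change was called when the 24 h samples were left out of the model (limma FDR 0.0443). The steps from 1 h to 2 h (0.61, limma FDR 0.00294) and from 2 h to 3 h (1.02, limma FDR 2.37e-06) both passed the test. From 6 h to 24 h the gene fell by 1.25 (limma FDR 4.18e-09), and the remaining change of 0.80 was still called.

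Il1rap, the accessory chain without which Il1r1 cannot signal, lies on chromosome 11 of rn5 from 83123955 to 83252556. It is shared with the receptors for IL-33 and IL-36. At the 6 time points the authors' mean was 8.77 at 0 h (SD 0.30), 8.998 at 1 h (SD 0.11), 9.59 at 2 h (SD 0.19), 10.76 at 3 h (SD 0.24), 11.60 at 6 h (SD 0.19) and 9.91 at 24 h (SD 0.47). Each mean from 1 h to 6 h was above the one before. It was the only one of the 9 genes whose 3 steps from 1 h to 6 h all passed the test, at 0.59, 1.17 and 0.84. The change at 6 h was 2.84 (SE 0.14, limma FDR 9.18e-22), or 7.14-fold, and at 1 h 0.23 (SE 0.13, limma FDR 0.163). At 24 h 40.5% of the 6 h change remained. Il1rap ranked 22 of all probe sets by the F-test.

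Il18rap, the accessory chain of the IL-18 receptor, lies on chromosome 9 of rn5 from 46917783 to 46939876. The mean deposited by the authors was 8.47 at 0 h (SD 0.25), 9.86 at 1 h (SD 0.20), 10.39 at 2 h (SD 0.28), 10.51 at 3 h (SD 0.25), 10.54 at 6 h (SD 0.25) and 9.40 at 24 h (SD 0.32). The means at 2, 3 and 6 h lay within 1 SD of each other and above the 1 h mean. The change was 1.39 at 1 h (SE 0.12, limma FDR 2.84e-12) and 2.07 at 6 h, or 4.21-fold, and the step from 1 h to 2 h passed the test (0.53, limma FDR 0.00307). The steps from 2 h to 3 h and from 3 h to 6 h did not. The gene fell by 1.14 from 6 h to 24 h (limma FDR 1.48e-09).

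Il18r1, the chain that binds IL-18, lies on chromosome 9 of rn5 from 46875196 to 46901140 and did not follow its partner. Its authors' mean was 7.88 at 0 h (SD 0.19), 7.90 at 1 h (SD 0.35), 7.83 at 2 h (SD 0.13), 8.00 at 3 h (SD 0.39), 7.73 at 6 h (SD 0.16) and 7.55 at 24 h (SD 0.25). From 1 h to 6 h its changes ran from -0.15 to 0.12 and none was called. The 95% confidence interval of the 6 h change was -0.42 to 0.11, where that of Il18rap was 1.81 to 2.33. At 24 h it was lower by -0.33 (SE 0.13, limma FDR 0.0441), a call that was lost without moderation of the variances (FDR 0.0555) and under quantile normalization (limma FDR 0.143).

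Il1r2, the decoy receptor that captures IL-1 without signalling, rose most of the 9 genes at every time point. The authors' mean signal was 8.68 at 0 h (SD 0.27), 10.999 at 1 h (SD 0.18), 11.64 at 2 h (SD 0.12), 11.70 at 3 h (SD 0.12), 12.01 at 6 h (SD 0.13) and 9.89 at 24 h (SD 0.62). The means of 1 h to 6 h were all well above 0 h, with the 1 h mean below the later 3, and the 24 h mean lay between 0 h and 1 h with a wide SD. The change was 2.32 at 1 h (SE 0.14, limma FDR 8.45e-17), or 4.99-fold, and 3.33 at 6 h (SE 0.15, limma FDR 6.22e-23), or 10.1-fold. Ordered by the size of the rise over all probe sets, it ranked 1, 1, 4, 7 and 29 at the 5 times in order. The step from 1 h to 2 h passed the test (0.64, limma FDR 0.00210). The step from 3 h to 6 h was 0.31 and did not (limma FDR 0.260), though it did without the 24 h samples (limma FDR 0.0299) and by a Welch test (adjusted p 0.0362). From 6 h to 24 h the gene fell by 2.12 (limma FDR 1.90e-15), to 36.3% of the 6 h change.

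Il1rn, the secreted antagonist of Il1r1, lies on chromosome 3 of rn5 from 1445668 to 1461452. The mean deposited by the authors was 11.16 at 0 h (SD 0.15), 11.35 at 1 h (SD 0.13), 11.80 at 2 h (SD 0.09), 11.74 at 3 h (SD 0.10), 11.93 at 6 h (SD 0.18) and 11.38 at 24 h (SD 0.27). The 2 h to 6 h means lay above the 0 h mean by several SDs, and those at 1 h and 24 h were closer to it. The change was 0.19 at 1 h (SE 0.08, limma FDR 0.0662), which was not called (FDR 0.0282 without the 24 h samples), 0.63 at 2 h and 0.77 at 6 h (SE 0.08, limma FDR 1.82e-10), or 1.70-fold. The gene fell by 0.55 from 6 h to 24 h (limma FDR 1.31e-06). The change left at 24 h was 0.21 (limma FDR 0.0396), and it was not called after the time points were centred on their median (limma FDR 0.111) or by a Welch test (adjusted p 0.167).

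The schedules of the 6 genes that were higher at 6 h can be compared as shares of each gene's own 6 h change. At 1 h, Il1r2 had reached 69.6% and Il18rap 67.0%, against 14.2% for Il1r1 and 8.22% for Il1rap. Il1b had reached 51.8% and Il1rn 24.2%. At 2 h, the shares were 88.7% for Il1r2 and 92.8% for Il18rap, and 44.1% for Il1r1 and 29.1% for Il1rap. Il1b had then reached 70.1% and Il1rn 82.3%, so Il1rn lay nearer the signalling pair at 1 h and nearer the decoy at 2 h. The decoy had thus covered most of its 6 h change when the signalling pair had covered less of theirs. At 3 h, Il1r1 had reached 94.2%, while Il1rap had reached 70.2%. These shares are descriptions, and their differences between genes were not tested. Between neighbouring time points, 5 of the 9 genes were called higher from 1 h to 2 h, where 4.66% of all probe sets were higher and 4.11% lower. From 2 h to 3 h 2 were called higher (1.90% and 1.62% of all probe sets), and from 3 h to 6 h 1 was (2.34% and 2.44%). In these steps 0 of the 9 were called lower. From 6 h to 24 h, 0 were called higher and 5 lower (10.2% and 8.68% of all probe sets), namely Il1r1, Il1rap, Il18rap, Il1r2 and Il1rn.

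**Figure D3:**
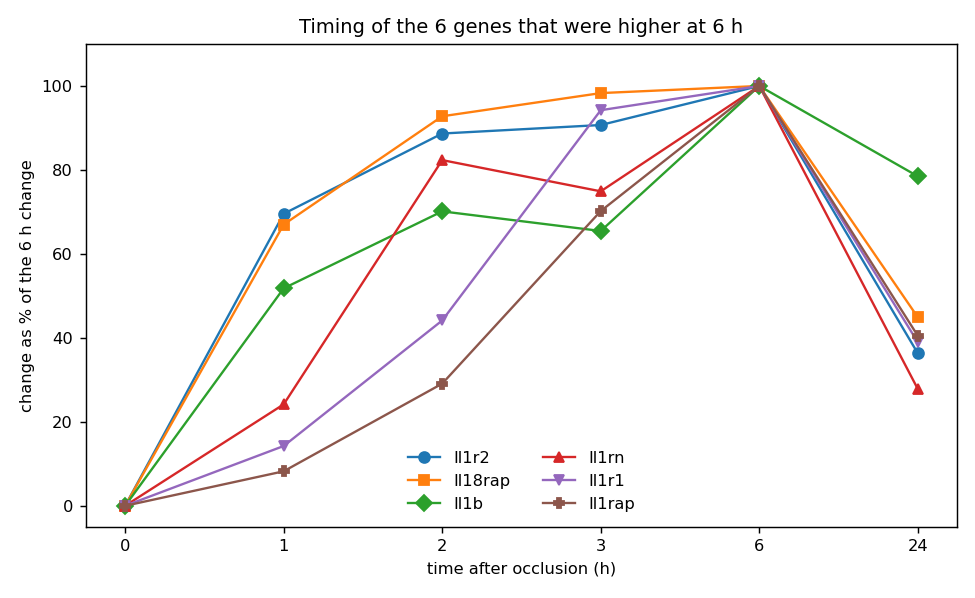
Change from 0 h as a percentage of the same gene's 6 h change, for the 6 genes called higher at 6 h, at time points drawn evenly spaced. Il1r2 and Il18rap lie at 69.6% and 67.0% at 1 h, Il1r1 and Il1rap at 14.2% and 8.22%, and Il1b keeps 78.5% at 24 h.

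The spread between arrays was wide at 24 h for most of the 9 genes. The 24 h SD of Il1r2, 0.62, was 4.16 times the median SD of all probe sets at that time and wider than that of 99.72% of them. The 24 h SDs of Il1r1, Il1rap, Il18rap and Il1rn were wider than those of 99.35%, 99.25%, 95.69% and 91.67% of probe sets. Those of Il18 and Il18r1, which were lower at 24 h, were wider than 91.35% and 89.4%. Wide SDs were not particular to 24 h, since Il18r1 was wider than 97.38% at 1 h and 97.45% at 3 h, Il18 than 93.26% at 6 h, and Il1b and Il1rap than 96.99% and 94.99% at 0 h. For Il1r2 the SDs at 2, 3 and 6 h had been 0.12 to 0.13, below the median SD of 0.14 to 0.16. Il1b, which stayed high, had a 24 h SD of 0.19. Il1a, with a 24 h SD of 0.10, was below the median. The 24 h blood alone came from the heart, and the part of the sampling site in these SDs cannot be told apart from that of time. Whether single rats kept high values across these genes was not examined here, because arrays were not matched to rats.

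**Figure D4:**
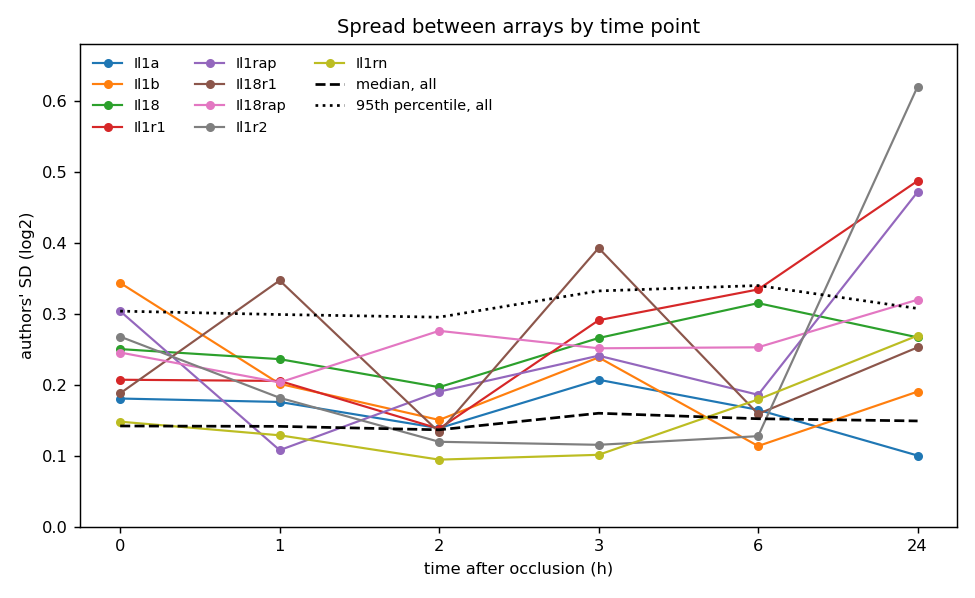
Authors' SD of the log2 RMA signal of each gene at the 6 time points, with the median (dashed) and 95th percentile (dotted) of the SDs of all 27596 probe sets. Il1r2, Il1r1, Il1rap and Il18rap lie above the dotted line at 24 h, with SDs of 0.62, 0.49, 0.47 and 0.32, as does Il1b at 0 h and Il18r1 at 1 h and 3 h.

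Of the receptor genes, 4 (Il1r2, Il1r1, Il18r1 and Il18rap) lie in 1 cluster on chromosome 9 with Il1rl2, the IL-36 receptor, and Il1rl1, the IL-33 receptor also called ST2. The cluster spans 414 kb on rn5, and Il1r2 lies from 46526298 to 46566513. The outermost genes, Il1r2 and Il18rap, were the early risers. In map order the 6 h changes were 3.33 (Il1r2), 2.05 (Il1r1), 0.05 (Il1rl2), -1.28 (Il1rl1), -0.15 (Il18r1) and 2.07 (Il18rap), higher toward both ends than in the middle. This is a description of 6 genes. Il18r1, the neighbour of Il18rap, was not called before 24 h. Il1rl1, between Il1r1 and Il18r1, was 7.18 at 0 h (SD 0.21) and 5.90 at 6 h (SD 0.32), a fall by 1.28 (SE 0.16, limma FDR 4.59e-09). Its change of 0.19 at 1 h was not called. Il1rl2 had changes of 0.16, 0.16 and 0.20 at 1, 2 and 3 h, which were called, and of 0.05 at 6 h, which was not.

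**Figure D5:**
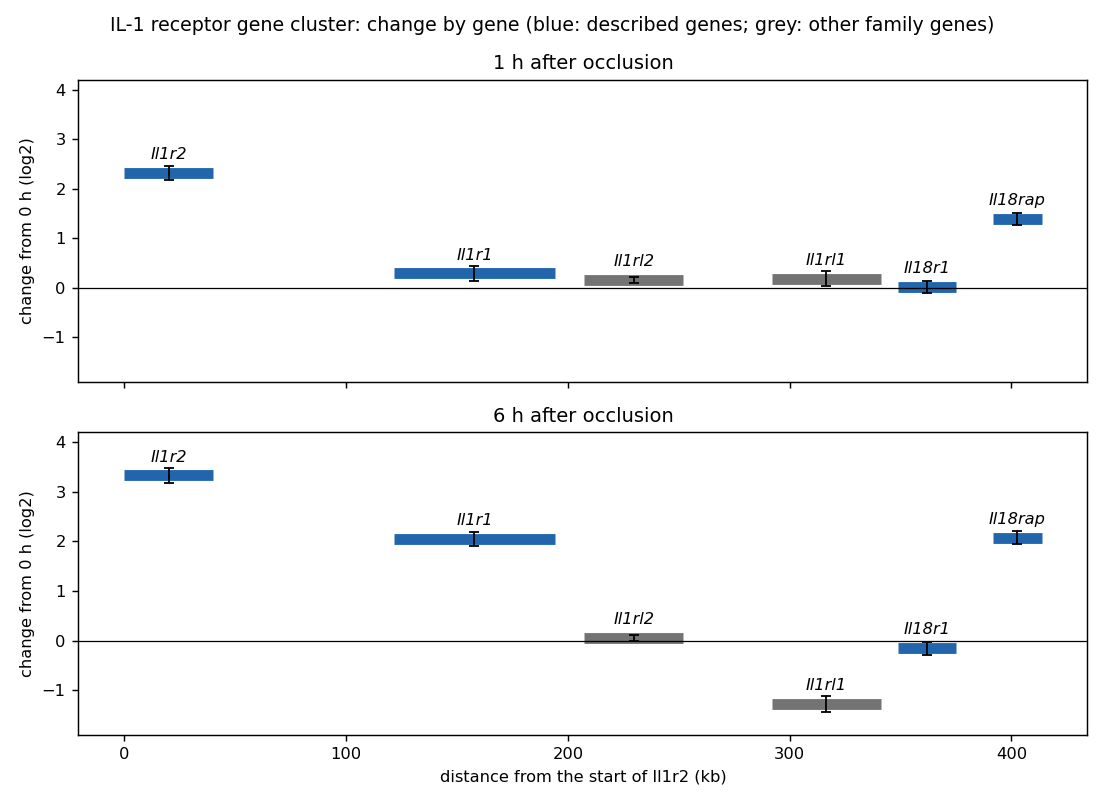
Change from 0 h at 1 h (top) and 6 h (bottom) of the 6 IL-1 receptor family genes of the chromosome 9 cluster against distance from the start of Il1r2 in kb. Bars span each gene and error bars are the SE. At 6 h Il1r2 lies at 3.33, Il1r1 at 2.05, Il18rap at 2.07, Il18r1 at -0.15 and Il1rl1 at -1.28.

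Of 7 other ligands and binding proteins of the family, 1 was lower at every time and 3, 5, 5, 5 and 3 were higher at the 5 times in order. Over all probe sets 21.7%, 21.7%, 27.3%, 22.5% and 17.4% were higher and 15.4%, 18.6%, 19.2%, 19.3% and 13.9% lower, so 1 lower gene of 7 is near the background. Il36rn, the antagonist of the IL-36 receptor, rose from 6.68 at 0 h to 8.28 at 2 h (change 1.61, SE 0.17, limma FDR 6.88e-11). Il36b, an IL-36 receptor agonist, changed by 0.92 at 2 h (limma FDR 6.00e-05), and Il1f10, which encodes IL-38, by 0.70 (limma FDR 7.95e-10). The 1 gene called lower was Il18bp, the soluble protein that neutralizes IL-18, which fell by 0.67 at 2 h (SE 0.09, limma FDR 6.36e-08) and by 0.30 at 24 h. It is named after its values were seen. Of 5 other receptors, 0 to 2 were called in each direction at any time, which in so short a list cannot be set apart from those shares. Besides Il1rl1 at 6 h, Sigirr, an inhibitory receptor of the family, fell by 0.57 at 6 h (SE 0.08, limma FDR 6.00e-08), and Il1rapl2 changed by 0.22 at 2 h.

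Among 8 genes of the maturation of IL-1β and IL-18, 2 were higher at every time, and 6, 5, 5, 5 and 6 were lower at 1, 2, 3, 6 and 24 h. The share that were higher is near that of all probe sets (17.4% to 27.3%), and the share that were lower is above it (13.9% to 19.3%). The 2 that rose were inflammasome sensors. Nlrp3 rose from 8.33 at 0 h to 9.79 at 6 h (change 1.46, SE 0.09, limma FDR 5.94e-19), and Nlrc4 from 8.86 to 9.86 at 2 h (change 1.00, SE 0.11, limma FDR 6.47e-10). Aim2, the sensor of cytosolic DNA, fell by 1.24 at 3 h (SE 0.16, limma FDR 7.49e-09). Casp1, the protease that cleaves both precursors, was among those lower, from 11.25 at 0 h to 10.68 at 24 h, a fall by 0.57 (SE 0.06, limma FDR 3.14e-09), and it is named after its values were seen. Nlrp1a, a further sensor, was also lower at all 5 times, by -0.22 to -0.48, so 2 of the 4 sensors on the list rose and 2 fell. It too is named after its values were seen.

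Of 19 signalling genes below the receptors, 2, 7, 7, 6 and 3 were higher and 6, 4, 6, 5 and 6 lower at the 5 times in order. Over all probe sets 21.7%, 21.7%, 27.3%, 22.5% and 17.4% were higher and 15.4%, 18.6%, 19.2%, 19.3% and 13.9% lower. The share of the 19 genes that were lower was near that of all probe sets at 2 h and above it at the other times. The share that were higher was above that of all probe sets at 2, 3 and 6 h, below it at 1 h and near it at 24 h. Myd88, the shared adaptor, had changes of -0.01, 0.65 and 0.86 over the first 3 hours, then reached 0.93 by 6 h (SE 0.07, limma FDR 7.78e-15). Irak4, the first kinase after it, was up by 0.82 at 3 h (SE 0.09, limma FDR 4.76e-10), with 0.15 at 1 h not called. Irak3, an inhibitory member of the kinase family, fell by 0.76 at 6 h (SE 0.10, limma FDR 2.42e-08). Il1r1, Il1rap, Il1rn, Myd88 and Irak4 were not called at 1 h and were called at 2, 3 and 6 h, although Il1r1 and Il1rn were called at 1 h as well when the 24 h samples were left out. Myd88 and Irak4 are the largest rises of a list that went both ways, and are not typical of it.

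Of 14 genes that IL-1 or IL-18 are known to induce, 13 were analysed. At the 5 times 6, 7, 8, 6 and 2 were higher, and 1, 2, 1, 1 and 1 lower. Against 21.7%, 21.7%, 27.3%, 22.5% and 17.4% of all probe sets higher, the share of these 13 genes was above at the first 4 times and near it at 24 h. This list, like the others, was chosen with earlier results of these data known, so the comparison is a description and not a test. The share that were lower was near or below that of all probe sets (13.9% to 19.3%). Nos2, the inducible nitric oxide synthase, rose from 7.77 at 0 h to 10.38 at 3 h (change 2.61, SE 0.12, limma FDR 2.28e-22). Ccl2, a monocyte chemoattractant, changed by 1.32 at 3 h (SE 0.23, limma FDR 7.04e-06), and Ptgs2, cyclooxygenase-2, by 0.96 at 2 h (SE 0.15, limma FDR 1.23e-06). Both were not called at 24 h. Ifng, the classic product of IL-18 acting on NK and T cells, ran from 5.13 to 5.38 and was called at none of the 5 times. Il6 was lower at each time, by -0.28 to -0.38. Ifng and Il6 are named after their values were seen. Many stimuli other than IL-1 induce these genes.

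The samples held the markers of blood. Hba1, a globin chain, had the highest mean of the table at 0 h, at 13.6, and Pf4, a platelet chemokine, was at 13.1. The 10 T cell markers ran from 8.87 to 11.2 at 0 h and the 12 neutrophil markers from 5.86 to 12.2. Markers of several cell types changed at the same times as the genes described. For comparison, 17.4% to 27.3% of all probe sets were higher and 13.9% to 19.3% lower at the 5 times. In lists this short, counts near those shares cannot be set apart from them. Of the neutrophil markers, 10, 10, 9, 9 and 6 of 12 were higher at the 5 times, with a median change of 0.82, 1.32, 1.25, 1.40 and 0.35. Mmp9 rose by 2.06 at 1 h and Lcn2 by 2.81 at 6 h, and Camp by 2.11 at 2 h. Fcgr3a, on that list but also expressed by monocytes and NK cells, was lower at every time. All 10 T cell markers were lower at all 5 times, with medians of -0.54, -1.02, -1.11, -1.25 and -0.75, and 6 or 7 of 7 B cell markers were lower. Of the 10 NK cell markers 1, 1, 0, 1 and 0 were higher and 3, 7, 8, 7 and 7 lower. The one called higher was Ncr1, an activating receptor of NK cells, with changes of 0.24, 0.22 and 0.34 at 1, 2 and 6 h, named after its values were seen. Of the 8 monocyte markers 1, 3, 3, 3 and 0 were higher and 5, 3, 4, 4 and 3 lower, with Cd14 up by 1.84 and Cx3cr1 down (-1.45) at 3 h.

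In bulk blood, more or fewer cells of a type and more or less RNA per cell cannot be told apart, and the part of cell makeup in the changes of the 9 genes was not tested. At 6 h the neutrophil markers had a median change of 1.40, and the 2 that rose most were Lcn2 at 2.81 and Mmp9 at 2.43. Beside these, Il1r2 changed by 3.33, Il1rap by 2.84, Il18rap by 2.07, Il1r1 by 2.05, Il1b by 0.92 and Il1rn by 0.77. The differences between these genes and the markers were not tested. At 24 h the neutrophil median was 0.35, but the list was split, with Mmp9, Csf3r, Cxcr2, S100a9, S100a8 and Mmp8 still higher (0.59 to 1.15), and Ngp and Fcgr3a lower (-0.90 and -0.97). Il1b, at 0.72, lay within the range of the 6 that were higher, but that range was set by picking markers called higher. The whole neutrophil list ran from -0.97 to 1.15 at 24 h. The markers named for 24 h are named after their values were seen, apart from Mmp9, Cxcr2 and Mmp8. Basophil and mast cell markers, whose cells carry Il1rl1, were lower for 4 of 6 at 6 h, with Mcpt8 falling by 1.38 and Ms4a2 by 0.83, beside the fall of Il1rl1. The level of Mcpt8 was then 4.94. Of the 6 platelet markers analysed 3, 2, 1, 0 and 4 were higher and 0 lower, and of 8 erythroid markers 3, 0, 1, 0 and 3 were higher and 2 were lower at 6 h. Several of these counts, such as the 2 erythroid markers lower at 6 h, are near the shares of all probe sets. Those shares were 17.4% to 27.3% higher and 13.9% to 19.3% lower. At 24 h Itga2b was up by 0.49 and Slc4a1 by 0.58.

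Genes with the most similar course were found by the root mean square (RMS) difference of the 5 changes from 0 h, over 20436 probe sets with 1 symbol, which says nothing of shared control. The nearest to Il1r2 were Ifitm6 (RMS 0.26), Hp, which encodes haptoglobin (0.44), and Fpr1, the formyl peptide receptor of neutrophils (0.45). Nearest to Il18rap were Tpd52 (0.10), Rbm47 (0.13) and P2ry13, a purinergic receptor (0.13). Il1r1 was nearest to LOC691931 (0.16), Alpk1 and Epha4 (0.19 each). Il1rap was nearest to Msr1, a scavenger receptor (0.27), Clec4b2 (0.30) and Rrm2, a subunit of ribonucleotide reductase (0.33). Il1b was nearest to LOC691658, Slc43a3 and Amn1 (0.11 to 0.12), and Il1rn to Mybph, Galns and Mir29c (0.05 to 0.07). Il18 was nearest to Pycard, the inflammasome adaptor (0.06), Tlr4, the endotoxin receptor (0.08), and Psmd3 (0.09). Pycard, like Il18, was lower at 1 h (-0.36, limma FDR 0.00484) and at 24 h (-0.37, limma FDR 0.00507) and not at the times between. Il18r1 was near to Nedd4 (0.06) and Tap1 (0.07), and Il1a to Dnajc25, Fshr and LOC685763 (0.03).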

How the data were processed

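The study hybridized whole blood RNA to 47 Affymetrix RaGene arrays. The authors made log2 values per probe set by RMA (background correction, quantile normalization, probe summary) and deposited, for each time point, the mean and SD of these log2 values over its arrays. The submitters' processing notes name limma. The annotation in the deposited table is on rn5. Its 47 columns of single arrays matched no label and were not used, nor were the authors' fold changes, p-values and F-tests. Whether the SDs divide by n or n - 1 is not given in the sources used here.

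The group-means model was rebuilt from the 12 columns of means and SDs and the array numbers, with limma 3.58.1 in R 4.3.3 (41 residual and 5.707 prior degrees of freedom), for 5 comparisons with 0 h, 4 neighbouring steps and an F-test. P-values were adjusted by Benjamini-Hochberg over 27596 probe sets (threshold 0.05). Arrays were taken as independent. The number of arrays limits the precision.

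On simulated arrays, limma's own fit was matched. In the simulated comparison of 2 h with 0 h over 27596 probe sets, 94 of 100 changes of 0.5 and 97 of 100 changes of 1 were called, and 9.91% of 212 calls were false.

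The members and 13 further lists (121 genes, 119 analysed) were chosen with earlier results of these data known. A symbol was represented by its probe set of highest mean. Named were the 9 genes, up to 3 genes of largest called change in each list, up to 3 of highest signal in marker lists, the 3 nearest profiles of each gene (1 of them is not reported here) and neighbours of the receptor family. Alternatives were no moderation, an intensity trend with robust prior, a 25% signal filter, centring, quantile normalization, SDs computed with n, no 24 h samples and Welch tests. Python 3.11.15 and matplotlib 3.10.9 were used for motifs and figures.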

Additional observations from a re-analysis of the deposited data

How the results depend on the processing

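Over the 8 alternatives, 663 of the values recomputed for single genes kept their side of the threshold. A further 14 were no longer called, 6 became called and 0 called changes reversed. Small changes that were not called could change sign and still count among the 663. The calls lost were of Il1a (2 h, 3 h, F-test), Il18r1 (24 h, F-test) and Il1rn (24 h). Without the 24 h samples the F-test of Il18r1 gave an FDR of 0.424, and with SDs taken as computed with n it gave 0.0701. The calls gained were Il1r1 and Il1rn at 1 h, Il1a from 1 h to 2 h, and Il1r2 from 3 h to 6 h. The number of the 9 genes called from 3 h to 6 h was therefore 2 in place of 1 without the 24 h samples (Il1r2 limma FDR 0.0299) and by Welch tests (adjusted p 0.0362).

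Over all probe sets, centring each time point on its median moved the share of calls that were higher from 58.6% to 40.0% at 1 h, from 58.7% to 47.2% at 3 h, from 55.6% to 37.3% at 24 h and from 53.1% to 64.4% for 2 h against 1 h. Welch tests called 387 in place of 973 probe sets from 2 h to 3 h, 326 in place of 1319 from 3 h to 6 h and 3364 in place of 5211 from 6 h to 24 h. With SDs computed with n the first 2 counts were 636 and 826. The causes were not tested.

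No paired analysis was possible because the columns used pool the rats of a time point. A second probe set was not tried, as each of the 9 genes has 1, and the signal filter removed Il1a. No background level was set for the arrays, which limits Il1a most.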
